A study of Mus musculus with 4 samples.

Results

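Changed sites of open chromatin that stood close together on a chromosome were treated as units. All the intervals of the authors' list of changed sites were put in order along each chromosome, neighbours were joined when the gap from the end of one to the start of the next was at most 25 kb, and runs of at least 3 intervals were kept as chains. The rule used positions only, and neither the size nor the direction of the change. It gave 149 chains holding 580 of the 3812 listed intervals (15.2%). Another 760 intervals stood in 380 pairs, and 2472 stood alone.

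The assay was ATAC-seq, in which the Tn5 transposase cuts open DNA, so that more reads at a site stand for more accessible chromatin. The cells were RAW 267.4 macrophages, a mouse macrophage cell line whose number is spelled here as in the sample labels (the study's text has the digits in another order), given no treatment in the 2 control samples and 5 mM methyl-β-cyclodextrin (MCD) for 1 hr in 1 mg/ml BSA in the 2 MCD samples. MCD is a ring of sugars that takes cholesterol out of membranes. All 4 samples come from this 1 line, and the labels do not say whether the replicates were separate cultures. Each listed interval is 201 bp wide and carries the authors' mean of normalised reads for each condition on the log2 scale. The values are means without per-sample numbers, so no SD and no n can be given, no test was made between the conditions, the depth is unknown, and every difference below is a difference between those 2 means (MCD minus control, log2). The list holds changed intervals only, so open sites without a listed change inside a chain were not analysed here, and the labelled cell type could not be checked: 6 of 8 macrophage marker genes had a listed interval, against 1 of 5 T cell markers and none of 11 markers of B cells, neutrophils and fibroblasts.

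Genes are controlled from promoters at their start sites and from enhancers that can lie inside genes or far from them, and strongly regulated genes often have several enhancers in a row. In macrophages PU.1, made by Spi1, keeps many enhancers open. Signal-dependent factors, among them AP-1 (dimers of the Jun, Fos and Atf families) and NF-κB (dimers of Rel proteins), act on enhancers when cells meet a stimulus.

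A few members of the chains are shown as reference sequence (GRCm38, plus strand, 5′ to 3′). Each was read from the RefSeq assembly of that build, and capitals mark every match to the 6 motifs searched on both strands. These were AP-1 (TGANTCA), CRE (TGACGTCA), the PU box bound by PU.1 (GAGGAAGT), C/EBP (TTGCNNAA), RUNX (TGTGGTT) and the κB motif of NF-κB. The first 2 come from chains of NF-κB genes and hold a κB match on the minus strand (Nfkb1, intron) and an AP-1 match (Rel, intergenic).
Nfkb1 chr3:135640299-135640499: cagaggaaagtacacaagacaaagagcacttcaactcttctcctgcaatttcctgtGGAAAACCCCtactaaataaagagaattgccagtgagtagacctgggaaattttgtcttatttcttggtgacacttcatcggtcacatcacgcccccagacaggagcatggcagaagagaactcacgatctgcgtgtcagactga
Rel chr11:23734912-23735112: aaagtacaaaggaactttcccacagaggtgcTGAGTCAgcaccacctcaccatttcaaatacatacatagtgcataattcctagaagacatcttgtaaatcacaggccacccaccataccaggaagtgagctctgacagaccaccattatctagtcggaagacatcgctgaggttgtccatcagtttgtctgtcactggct
Among the lower chains, the Itga4 interval with the largest decrease (intron) held no match, and a Zfp36l2 interval (intergenic) held a PU box on the minus strand.
Itga4 chr2:79306346-79306546: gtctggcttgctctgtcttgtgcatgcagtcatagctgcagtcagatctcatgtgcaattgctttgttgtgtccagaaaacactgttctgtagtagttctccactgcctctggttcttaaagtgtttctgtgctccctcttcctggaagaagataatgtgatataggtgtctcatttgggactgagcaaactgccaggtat
Zfp36l2 chr17:84061772-84061972: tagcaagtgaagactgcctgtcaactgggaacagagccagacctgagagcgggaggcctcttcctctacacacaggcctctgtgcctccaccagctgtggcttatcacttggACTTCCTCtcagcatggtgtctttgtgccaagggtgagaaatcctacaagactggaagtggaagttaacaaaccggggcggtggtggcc
The Ptprc chain is shown whole, because it held intervals of both directions. Its members are given in chromosome order, the second being the lower one. The first held an AP-1 match, the second a PU box, the third a C/EBP match, and the fourth a PU box and an AP-1 match that share 1 base.
Ptprc chr1:138144431-138144631: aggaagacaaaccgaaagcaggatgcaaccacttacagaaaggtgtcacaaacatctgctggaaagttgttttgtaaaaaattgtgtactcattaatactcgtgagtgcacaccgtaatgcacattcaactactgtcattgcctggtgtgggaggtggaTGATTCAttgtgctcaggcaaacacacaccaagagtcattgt
Ptprc chr1:138145644-138145844: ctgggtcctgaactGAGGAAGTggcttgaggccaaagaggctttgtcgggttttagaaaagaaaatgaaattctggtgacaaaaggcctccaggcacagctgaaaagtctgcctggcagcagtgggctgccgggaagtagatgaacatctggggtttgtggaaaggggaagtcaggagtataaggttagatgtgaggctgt
Ptprc chr1:138159011-138159211: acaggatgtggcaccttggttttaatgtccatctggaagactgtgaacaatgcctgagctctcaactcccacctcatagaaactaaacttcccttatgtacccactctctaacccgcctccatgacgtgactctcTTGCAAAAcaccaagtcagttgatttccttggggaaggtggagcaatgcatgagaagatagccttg
Ptprc chr1:138180160-138180360: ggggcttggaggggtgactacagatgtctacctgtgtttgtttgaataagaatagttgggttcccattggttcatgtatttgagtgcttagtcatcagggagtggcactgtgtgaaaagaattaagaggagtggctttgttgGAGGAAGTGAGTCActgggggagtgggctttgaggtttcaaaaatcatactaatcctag

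Most chains were of a single direction, and most of those were higher after MCD. In 111 chains (74.5%) every interval had a higher mean after MCD, in 19 (12.8%) every interval had a lower one, and 19 (12.8%) were mixed. Counted by interval, 477 of the 580 chain intervals were higher and 103 lower, so 82.2% were higher, against 73.2% of all listed intervals. The share was 70.7% among the intervals that stood alone and 74.5% among those in pairs. Of the 380 pairs, 330 (86.8%) were of a single direction, which is close to the 130 of 149 chains (87.2%) although a chain has more members that could differ.

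Most chains were short. There were 89 of 3 intervals, 32 of 4, 11 of 5, 8 of 6 and 4 of 7, and beyond these 2 of 8 and 1 each of 9, 10 and 19. Their span ran from 3.97 to 109.1 kb with a median of 23.5 kb, and the middle of the distribution lay between 14.2 and 32.1 kb. Median span was 22.8 kb in both the higher and the lower chains and 29.1 kb in the mixed chains. Among the 28 chains of 5 or more intervals, 22 were higher, 4 lower and 2 mixed.

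**Figure D1:**
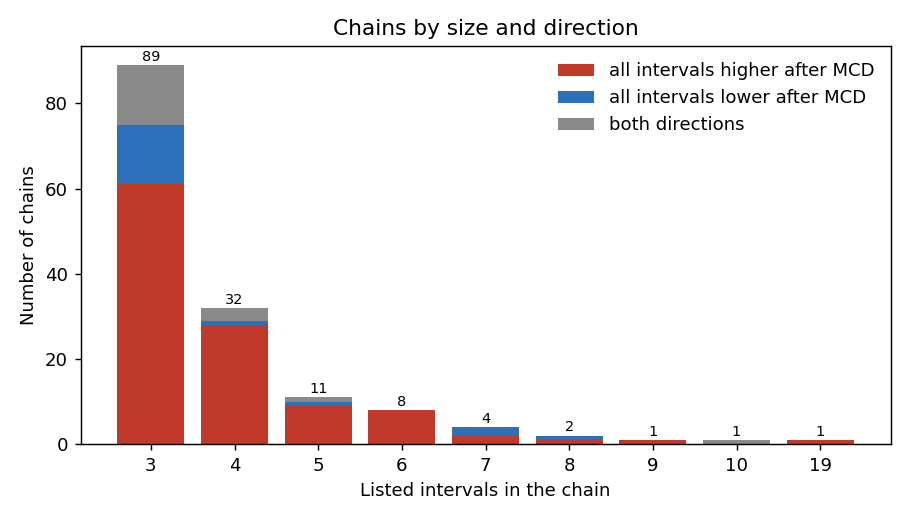
Number of chains (vertical axis) by the number of listed intervals in the chain (horizontal axis), with colours for chains whose intervals were all higher after MCD, all lower, or of both directions, and the total above each bar. The 89 chains of 3 make up most of the 149, and the single chain of 19 is the Nfkb1 chain.

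The size of the change was similar inside and outside chains at the median and larger inside at the upper end. The higher chain intervals had a median difference of 1.48, against 1.39 over all listed higher intervals, with median reads of 29.0 in control and 86.3 after MCD. At least a 4-fold difference was seen in 99 of them (20.8%), against 15.8% of all listed higher intervals. The lower chain intervals had a median difference of -1.01, against -0.97 over all listed lower intervals, and median reads of 123 in control and 57.0 after MCD. At least a 4-fold decrease was seen in 5 of these 103 (4.85%), against 1.47% of all listed lower intervals. Over whole chains, the median difference ran from 0.66 to 2.48 in the higher chains and from -1.87 to -0.61 in the lower ones.

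The differences inside a chain varied with the starting level. In 85 of the 111 higher chains (76.6%) the interval with the most reads in control had the smallest difference. The same was seen in 13 of the 19 lower chains (68.4%). The control mean enters the difference, so the pair of measures is not independent, and the list as a whole showed the same order. With all listed higher intervals split into 4 equal groups by control reads, the median difference was 2.01, 1.51, 1.22 and 0.85 from the fewest reads to the most, and in the chain intervals of those groups it was 2.09, 1.64, 1.30 and 0.86.

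The largest chain covered the whole of Nfkb1, which encodes the p105 precursor of the NF-κB subunit p50. It lay at chr3:135582534-135691642 and held 19 intervals in 109.1 kb, all higher after MCD, with a median difference of 1.72 and a range from 0.59 to 2.89. Summed over its intervals, mean normalised reads were 501 in control and 1476 after MCD, a ratio of 2.95. One interval covered the start site of the gene, 17 lay in its introns and the last lay beyond its end.

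The interval at the Nfkb1 start site had 155 reads in control and 233 after MCD, the highest control level of the chain and its smallest difference. The other 18 intervals started from 10.5 to 57.1 reads. The intronic interval whose sequence is shown above, with the κB match, went from 18.1 reads in control to 134 after MCD (2.89), and the intronic interval at chr3:135670605-135670805, with an AP-1 and a κB match, from 34.1 to 212 (2.64). These 2 intervals had the largest differences of the chain, but across it only 2 intervals held an AP-1 match and 3 a κB match, one of them at the start site with its difference of 0.59. Of the other 15 intronic intervals, 13 had 10.5 to 18.5 reads in control and 36.9 to 62.9 after MCD.

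**Figure D2:**
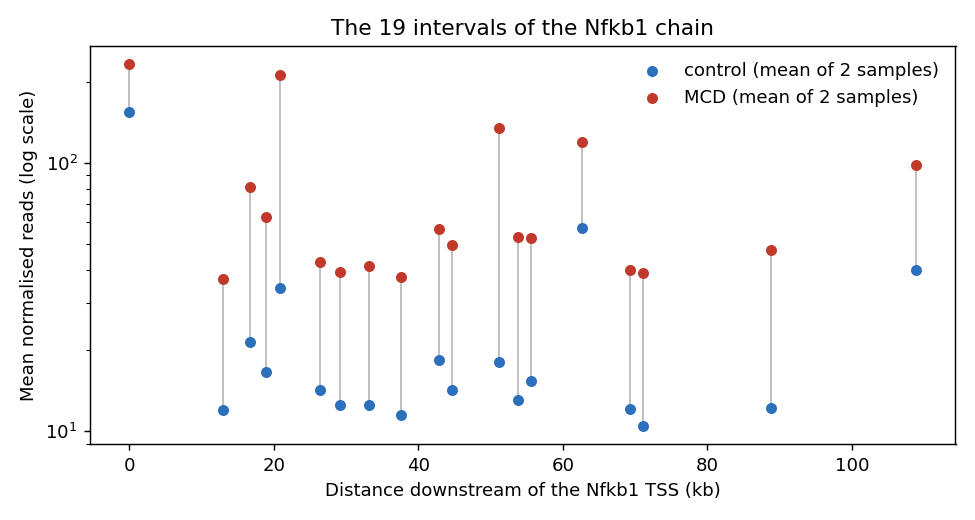
Mean normalised reads (log axis) in control and after MCD for the 19 intervals of the Nfkb1 chain, against the distance of the interval's centre downstream of the gene's outermost start site (kb), with a grey line joining the 2 means of each interval. The start site interval has the most reads in both conditions and the shortest line, and in all 19 the MCD mean lies above the control mean.

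Other genes on a chosen list for the NF-κB system carried chains of the same direction. Of 20 genes of the NF-κB family and its regulators, 8 had a listed interval nearest to them and 5 had a chain (Nfkb1, Rel, Nfkbiz, Tnip1 and Il1b). Their 37 chain intervals were all higher after MCD, with a median difference of 1.77. For comparison, 82.2% of all chain intervals were higher, and of the 2587 genes nearest to any listed interval 186 (7.19%) were nearest to a chain interval. The lists were chosen with results of these data known, so their shares are no independent evidence. Malt1 was not on that list but had the chain of 9 intervals, and it encodes a protease and scaffold that lies upstream of NF-κB in immune receptor signalling.

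Rel, which encodes the NF-κB subunit c-Rel, had 5 intervals at chr11:23730065-23754565 with a median difference of 2.42. Their summed reads were 105 in control and 488 after MCD, a ratio of 4.65. Control and MCD means were 13.6 and 40.4 in the first interval, in an intron of the neighbouring gene Pus10, 15.9 and 93.1 in the intergenic interval shown above, and 24.8 and 81.8, 8.26 and 44.3, and 42.4 and 229 in the last 3, inside Rel. The last held 2 κB matches, and the 3 before it each held an AP-1 match.

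Nfkbiz encodes IκBζ, a nuclear cofactor of NF-κB. Its 6 intervals at chr16:55806477-55831390 had a median difference of 2.40 and a narrow range from 1.80 to 2.58, and their summed reads went from 127 to 578. No interval of that chain held an AP-1 or κB match. The Malt1 chain (chr18:65426610-65480863, 54.3 kb) likewise held no match to either motif. Its median difference was 2.08, its smallest difference (0.93) was at the interval 4128 bp upstream of the start site, and its largest (3.05, from 5.53 to 45.9 reads) was in an exon.

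Tnip1 encodes a partner of A20 that restrains NF-κB signalling, and its 4 intervals had a median difference of 1.29. Il1b, the gene of the inflammatory cytokine interleukin-1β, had 3. The one over its start site had 36.4 reads in control and 79.4 after MCD (1.13), and the one 14256 bp upstream, with an AP-1 match, 7.12 and 46.9 (2.72). The neighbouring gene Il1a had a chain of 5 of its own, all higher with a median difference of 1.17, and the gap between both chains was 32.6 kb.

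The cytokine and chemokine genes of the chosen list carried higher chains. Of its 16 genes 14 had a listed interval and 8 had a chain (Il1a, Il10, Osm, Lif, Ccl3, Ccl4, Cxcl2 and Csf1). Over all genes nearest to a listed interval, 7.19% were nearest to a chain interval. All 25 chain intervals of these 8 genes were higher (82.2% over all chains). Their median difference was 1.17, below the 1.48 of all higher chain intervals. Outside the list, the cytokine gene Il16 had a chain of 3 intervals, all lower (median -0.99). The chain of 3 nearest to Cln3 and Il27 was higher (median 1.11). Cxcl2, a chemokine that attracts neutrophils, had 3 intervals upstream of its start site with 79.7 to 139 reads in control and differences of 0.79 to 1.06. The interval 2511 bp downstream went from 9.27 to 98.8 reads, and its difference of 3.41 was the largest of all chain intervals. A similar contrast was seen over the chemokine genes Ccl3 and Ccl4. The interval 137 bp inside Ccl4 went from 39.1 to 194 reads (2.31), while the other 4 of that chain had differences of 0.67 to 1.35.

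Il10, which encodes an anti-inflammatory cytokine, had 5 intervals from an intron to 19764 bp downstream of its start site. Of these 4 held an AP-1 match, and the one with the most control reads (155, and 229 after MCD) held 3. Osm and Lif, adjacent genes of interleukin-6 type cytokines, shared a chain of 4, in which a Lif intron interval had 10.5 reads in control and 67.2 after MCD (2.68). The Csf1 chain (3 intervals, median difference 1.37) lay 12439 to 17564 bp upstream of the gene of the macrophage growth factor.

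Of 17 early response genes, 14 had a listed interval and 7 had a chain. These were Dusp1, Dusp2, Dusp4 and Dusp5, whose products remove phosphate from MAP kinases, and Egr2, Ier3 and Phlda1. Of all genes nearest to a listed interval, 7.19% were nearest to a chain interval. All 19 chain intervals of these 7 genes were higher, against 82.2% over all chains, with a median difference of 1.30. The Dusp4 chain was the shortest of all, with 3 intervals in 3.97 kb 44202 to 47969 bp upstream of the gene. In the Dusp2 chain the interval over the start site had 251 reads in control and 351 after MCD, a difference of 0.49, while the interval 2596 bp upstream went from 25.4 to 110 (2.11). The Dusp1 chain had the smallest median difference of the higher chains (0.66), and each of its 3 intervals held an AP-1 match. At Egr2, a zinc finger factor, 3 intergenic intervals 13557 to 44055 bp upstream had differences of 1.30, 1.72 and 2.32 from the farthest to the nearest.

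The genes of AP-1 and its partners had mostly higher intervals, as did the whole list. Of their 20 listed intervals 17 were higher, against 73.2% of all listed intervals. Of 13 such genes 8 had a listed interval and 3 had a chain (Atf3, Fosl2 and Jun). The share with a chain over all genes nearest to a listed interval was 7.19%. Of the chain intervals of these 3 genes 8 were higher and 3 lower, and over all chains 82.2% were higher. The 7 intervals of the Atf3 chain (chr1:191166447-191216374, shared with Fam71a) were all higher with a median difference of 1.71, and 4 of them held an AP-1 match. Fosl2 had 4 intervals with a median of 1.85, among them an exon interval that went from 5.45 to 39.9 reads (2.87). The chain nearest to Jun was lower, but far from it. Its 3 intergenic intervals, 163008 to 197988 bp upstream, went from 216 to 117 reads, from 177 to 80.1 and from 72.4 to 25.5.

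Of 12 sterol genes, 4 had a listed interval and Hmgcs1 alone had a chain. Hmgcs1 encodes the synthase that makes HMG-CoA for cholesterol synthesis, and its 4 intervals (chr13:119699766-119710591, the last in an exon of Nim1k) had differences of 1.29 to 1.67. Of 14 chromatin enzymes, 9 had a listed interval and 0 had a chain. Over all genes nearest to a listed interval, 7.19% were nearest to a chain interval. Of the 8 macrophage markers, Spi1 and Cebpb, the genes of PU.1 and of C/EBPβ, had chains of 3 intervals, with median differences of 1.98 (shared with Slc39a13 and Mybpc3) and 0.95. Of the 10 listed intervals nearest to these markers 4 were higher, all of them in those chains, and the other 6 were lower and in no chain.

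By size of change, the higher chains with the largest medians were those of Twist2, Rel, Nfkbiz, Olfr161 and Ksr1 with Wsb1 (2.48, 2.42, 2.40, 2.36 and 2.35). The 4 intervals of the Twist2 chain stood in 5.71 kb of intergenic DNA 104020 to 109531 bp from that gene's start site, and their summed reads went from 41.9 to 207. The Olfr161 chain was also intergenic, 49916 to 61647 bp from the nearest start site. A nearest start site at such distances names a place and not a target. Ptprj, which encodes the receptor phosphatase CD148, had 8 intervals inside the gene with a median difference of 1.40, and 5 of them held an AP-1 match. Cd9, a tetraspanin, shared with Plekhg6 a chain of 7 with a median of 1.09, and 4 of those held one.

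Lower chains were fewer, and the one with the most intervals lay over an integrin gene. Itga4 encodes the α4 integrin chain, and its chain of 8 (chr2:79276430-79337474) had 5 intervals in Itga4 introns and 3 in introns of the adjacent gene Cerkl. Their reads went from 29.3 to 82.3 in control to 6.45 to 40.9 after MCD, the summed reads from 393 to 141, and the median difference was -1.54. All 8 differences lay between -2.18 and -1.01. The chain of 7 at chr14:121929434-122013932 spanned 84.5 kb inside Ubac2, whose introns hold Gpr18 and Gpr183, genes of G protein-coupled receptors. Its differences were -0.58 to -1.12 in 6 intervals and -2.12 in the other, in which reads went from 49.4 to 11.3.

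The largest median decrease of the lower chains with 5 or more intervals (-1.68) was in an intron of Sgcz, the gene of a sarcoglycan of muscle, 759550 to 781109 bp from its start site. Its 7 intervals at chr8:37880199-37901958 had 64.4 to 169 reads in control and 19.1 to 55.6 after MCD. Their summed reads went from 719 to 213, a ratio of 0.30. Cst3, which encodes the protease inhibitor cystatin C, had a chain of 5 with a median of -1.43. Its start site interval had the most reads, 332 in control and 237 after MCD, and the smallest difference (-0.49), and the other 4 had differences of -1.26 to -1.58. The Ttpal and Serinc3 chain had the largest median decrease (-1.87), and the Fam98a chain (-1.19) lay mostly in introns of Rasgrp3, which itself had a lower chain 56.3 kb away.

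**Figure D3:**
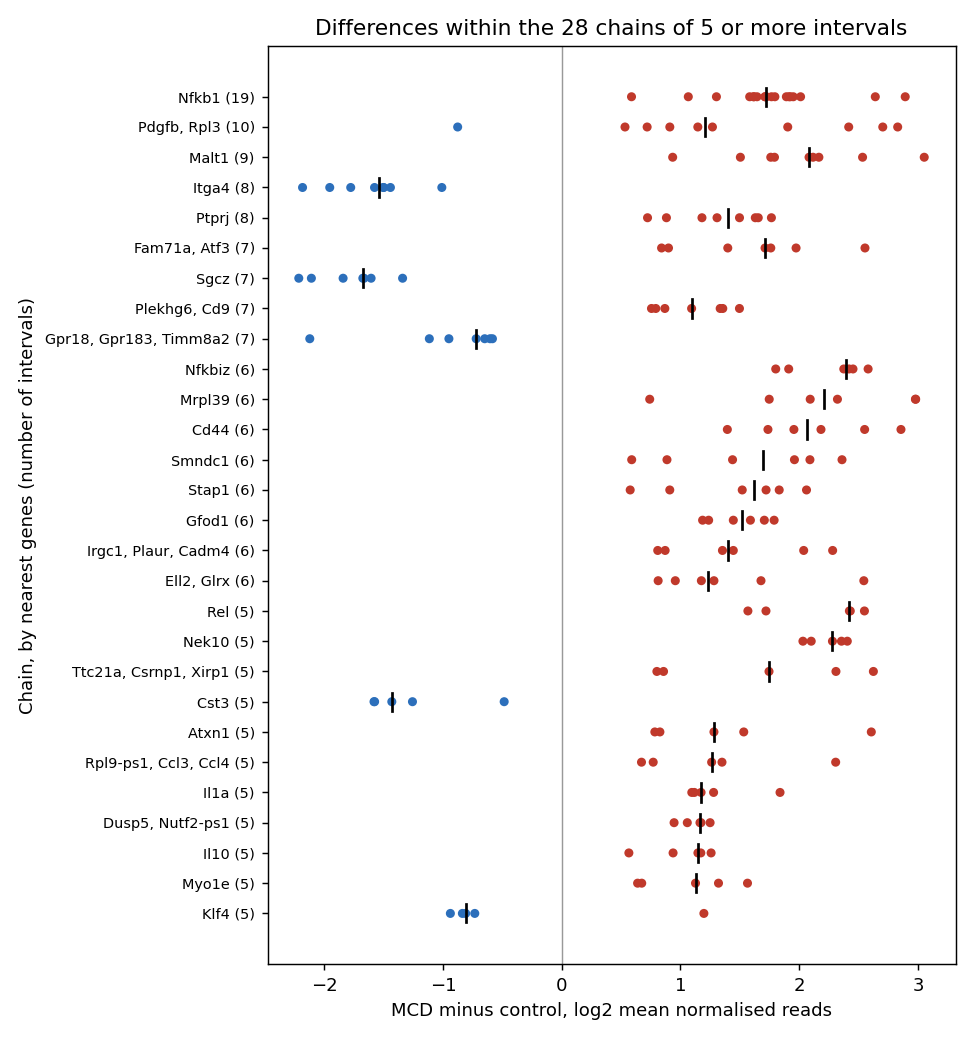
Differences (MCD minus control, log2 mean normalised reads, horizontal axis) of every interval in the 28 chains of 5 or more, in rows ordered by the number of intervals and named by their nearest genes, red for higher, blue for lower, with a black mark at the chain's median. Only the Pdgfb and Klf4 rows have points on both sides of 0, and Itga4, Sgcz, Gpr18 and Cst3 are the 4 rows wholly on the lower side.

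Intervals at start sites had small differences within their chains. In 8 chains an interval covered a start site, and in 7 of them (Nfkb1, Dusp2, Il1b, Matn4 with Sdc4, Cst3, Nrros and Cx3cr1) that interval had the smallest difference of its chain. The exception was Il16. In the chains of Nfkb1, Dusp2, Il1b, Cst3 and Cx3cr1 the start site interval also had the most control reads. The interval with the most control reads had the smallest difference in 76.6% of all higher chains and 68.4% of all lower ones. Start site and starting level were therefore not told apart. Start sites were nevertheless rare among members: 50 chain intervals (8.62%) lay within 3 kb of one, against 9.84% of all listed intervals, and 36 chains had such a member. In 37 chains every interval was over 50 kb from the nearest start site of a protein-coding gene, and in 16 over 100 kb.

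Of the 149 chains, 39 lay wholly inside 1 gene (29 higher, 6 lower, 4 mixed), 7 had every interval in a gene but not all in the same one (4, 3 and 0), 58 were wholly intergenic (43, 7 and 8) and 45 were partly in genes (35, 3 and 7). All intervals of 110 chains (73.8%) had the same nearest gene, 34 chains had 2 genes and 5 had 3. In total 186 genes were assigned to a chain. Chains held from 7.83% of the listed intervals of a chromosome (chromosome 18) to 96 of 369 (chromosome 2, in 25 chains), with 25.6% on chromosome 16.

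There were 7 genes with 2 chains each, namely Bcl2l11, Cd44, Cited2, Mrpl39, Ptprc, Runx1 and Xirp1. At Cd44, which encodes a receptor for hyaluronan, 6 intervals 68087 to 91021 bp downstream of the start site had a median difference of 2.07, and 3 intervals 57746 to 79784 bp upstream a median of 1.19. At Bcl2l11, the gene of the cell death protein BIM, the upstream chain, in introns of Acoxl, had a median of 1.18 and the downstream one of 2.13. In 5 places a pair of neighbouring chains stood within 100 kb of each other, and in 3 of these both were higher and in 1 both were lower.

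The remaining neighbours were opposite, and both lay inside the annotated Cx3cr1 gene, whose model also spans the neighbouring genes. At chr9:119953688-120004380 a chain of 5, nearest to the start sites of Ttc21a, Csrnp1 and Xirp1, was higher, with a median of 1.75. Starting 33.1 kb on, the 3 intervals of a chain nearest to the start sites of Xirp1 and Cx3cr1 were lower. Cx3cr1 encodes the fractalkine receptor, a marker of monocytes and tissue macrophages, and its start site interval had 236 reads in control and 158 after MCD (-0.57). The other 2 went from 92.0 to 48.7 and from 167 to 92.0. On the higher side the largest difference (2.62) was in an interval nearest to the start site of Csrnp1, a nuclear protein gene, which went from 17.1 to 105 reads.

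Of the 431 pairs of neighbours inside chains 24 were of opposite direction and 94.4% of the same one. The gap between neighbours was 529 bp at least and 6513 bp at the median, and 65 gaps were under 2 kb. Same-direction pairs made up 97.7% of 172 gaps under 5 kb, 95.7% of 117 from 5 to 10 kb, 95.7% of 46 from 10 to 15 kb, 83.1% of 59 from 15 to 20 kb and 91.9% of 37 above that.

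In 18 of the 19 mixed chains a single interval stood against the rest, and the exception, the Tmco5 chain, had 2 of each direction. Of the 19, 14 had 3 intervals, and a mixed chain of 3 always holds a single odd interval. The odd interval stood at an end of the chain in 13, and in a chain of 3 all places but the middle are ends. The order changed direction once in 14 chains and back again in 5. More members were higher in 11 chains and lower in 7. The gap at which direction changed had a median of 16247 bp, against 8346 bp between same-direction neighbours of these chains, and ran from 1013 to 24269 bp.

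Higher and lower members of mixed chains started from different levels. The 39 higher intervals had a median of 39.6 reads in control and 95.6 after MCD, and the 30 lower ones 153 and 84.0. In 14 of the 19 chains every lower interval had more control reads than every higher interval, and after MCD this was so in 3. The split is by the sign of the change, so that the order of the levels before and after follows in part from it. Over all listed intervals the medians were 29.2 and 78.6 reads in the higher and 114 and 57.1 in the lower ones.

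The smallest gap with a change of direction was in Ptprc, the gene of the leukocyte phosphatase CD45 (chr1:138144431-138180360). Its first interval went from 24.3 to 75.1 reads, and the second, 1013 bp further on and also intronic, from 154 to 93.1. The third went from 126 to 200 and the fourth, 4854 bp upstream of the start site, from 25.2 to 64.2. In the sequences shown above the first holds an AP-1 match without a PU box and the second a PU box without AP-1, while the fourth holds both. The other Ptprc chain, of 3 intervals at chr1:138009575-138037731, was higher throughout with a median of 1.99.

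The largest mixed chain lay between Pdgfb, which encodes a growth factor, and Rpl3 (chr15:79992046-80072297). Of its 10 intervals 9 were higher, by 0.53 to 2.83, and the last was lower, going from 172 to 93.5 reads. The Klf4 chain lay 246379 to 291643 bp upstream of that zinc finger factor's start site. Its first interval went from 40.1 to 92.0 reads, with an AP-1 match, and its other 4 were lower, from 149 to 210 reads in control to 85.1 to 126 after MCD. In the Btrc chain, upstream of the gene of an F-box protein that marks IκB for degradation, a lower interval (98.5 to 51.7 reads) preceded a pair of higher ones with differences of 2.36 and 2.11. The Slco4a1 chain had a single higher interval, 2395 bp upstream of the start site, among 3 lower ones. The Nemp2 chain had 1 lower and 2 higher intervals, and the Lrrc8d chain 1 higher and 2 lower.

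**Figure D4:**
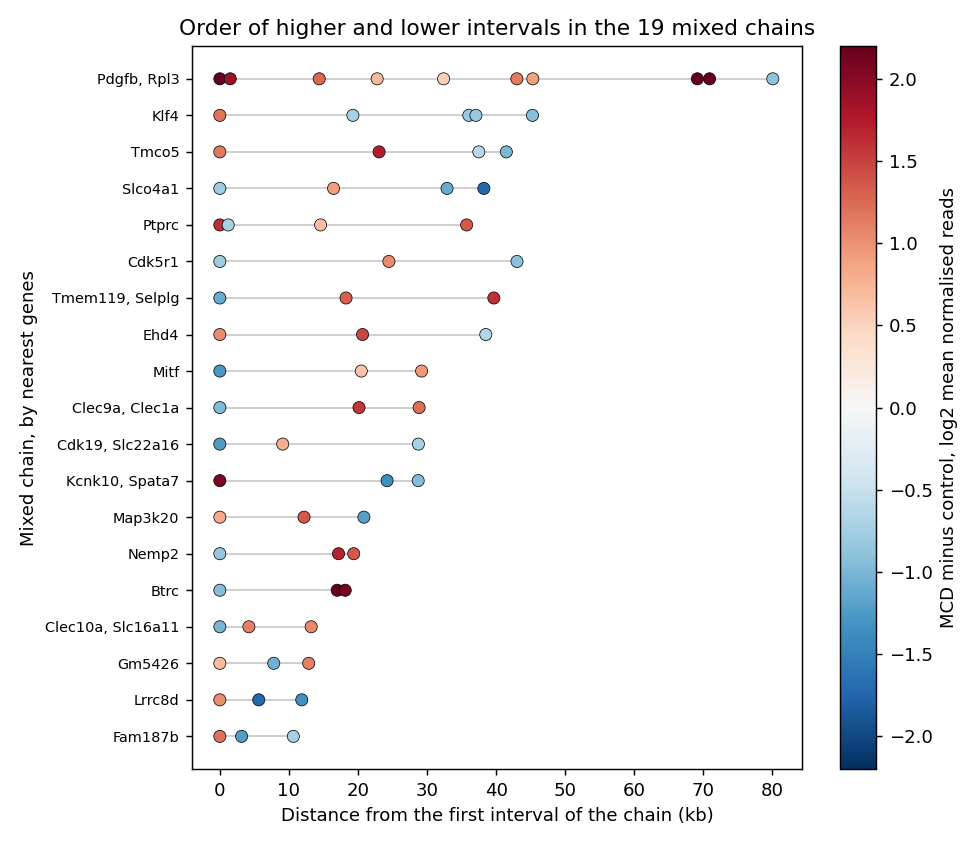
Positions of the intervals in the 19 mixed chains, as distance from the first interval of the chain (kb, horizontal axis), in rows by nearest genes, with red for intervals higher after MCD and blue for lower ones on the colour scale of the difference (log2). In 18 rows a single point has the other colour, and in 13 it stands at an end. The 14 rows of 3 points can only have a single point of the other colour.

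As in the whole list, AP-1 matches were more frequent in higher than in lower members. Among higher intervals they were rarer in chains. An AP-1 match was found in 199 of the 477 higher chain intervals (41.7%) and in 6 of the 103 lower ones (5.83%), against 52.8% and 3.33% of all listed higher and lower intervals. Among higher intervals the share was 56.0% of 1747 that stood alone, 52.3% of 566 in pairs, 46.1% of 206 in chains of 3, 42.4% of 118 in chains of 4 and 35.3% of 153 in chains of 5 or more. Without the Nfkb1 chain the last value was 38.8% of 134. In mixed chains an AP-1 match was found in 14 of 39 higher intervals and 0 of 30 lower ones. The intervals are those of 4 samples and share loci, so these shares are descriptions.

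Few higher chains had AP-1 in every member. Among the 111 higher chains 7 had a match in each interval and 16 had none, and of the 22 with 5 or more intervals 0 had a match in each and 4 had none. A match was in 42.2% of the intervals of the 111 chains. The counts were not set against those that this share alone would give. In the higher chains the 185 intervals with AP-1 started from a median of 36.7 reads and had a median difference of 1.37, and the 253 without it started from 21.5 reads and had 1.59. Over all listed higher intervals the median differences lay closer together, at 1.38 with AP-1 and 1.41 without. In the group of higher intervals with the fewest control reads, of the 4 equal groups above, 27.0% of 115 chain members held an AP-1 match, against 49.2% of all listed ones in that group, and in the group with the most, 48.2% of 139 against 53.0%. By position, 51.8% of 112 higher intervals of chains inside 1 gene held AP-1, 45.1% of 162 in intergenic chains, 35.7% of 185 in chains partly in genes and 2 of 18 in chains across several genes.

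A κB match was found in 37 higher chain intervals (7.76%) and 5 lower ones (4.85%), against 8.67% and 2.54% of all listed ones, and 10 chain intervals held both κB and AP-1. The PU box was in 19 higher (3.98%) and 12 lower chain intervals (11.7%), against 4.66% and 15.9% over the list. C/EBP matches were in 10.7% and 12.6% of higher and lower chain intervals (11.3% and 15.2% over the list) and RUNX matches in 6.71% and 13.6% (7.92% and 11.4%). CRE was in 9 higher intervals (1.89%) and 0 lower ones, against 1.47% and 0 over the list. GC content was near equal, with medians of 47.8% and 47.3% in the higher and lower chain intervals. A match says only that these letters are in the reference sequence of the interval, and factor binding was not measured here.

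**Figure D5:**
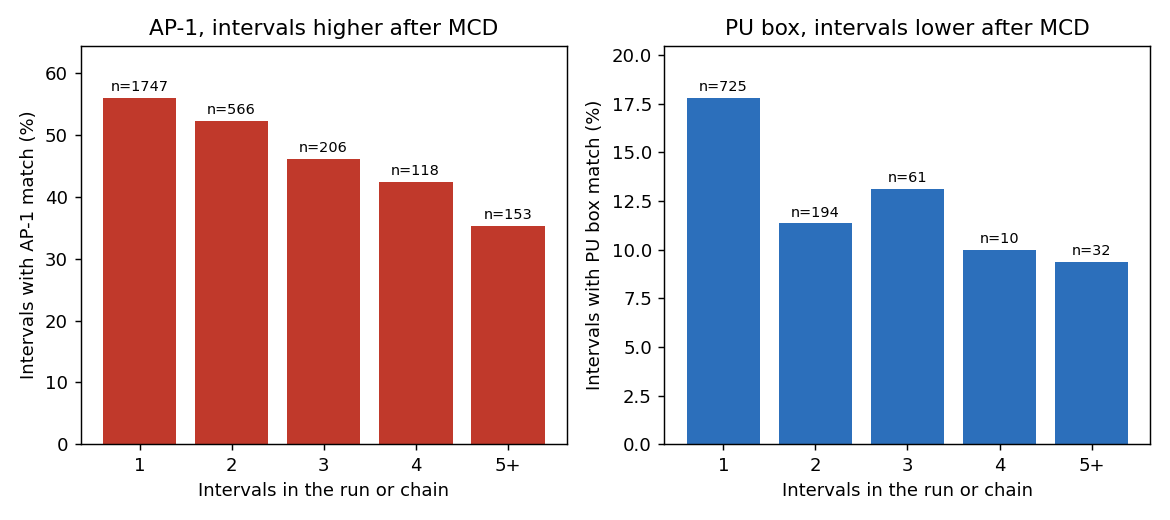
Share of intervals (%) with an AP-1 match among those higher after MCD (left) and with a PU box among those lower (right), by the number of intervals in the run or chain, with the number of intervals above each bar. The AP-1 share goes from 56.0% in lone intervals to 35.3% in chains of 5 or more, and the PU box bars for chains of 4 and of 5 or more rest on 10 and 32 intervals.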

How the data were processed

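ATAC-seq reads were aligned by the authors to GRCm38 (mm10) with Bowtie2, and duplicates were removed with Picard. Peaks were called with MACS2 per the study's methods, while the submitters' processing notes name MACS3 3.0.0 beside Bowtie2 2.4.4, cutadapt 2.6, deepTools 3.5.1 and R 4.0.2. The conditions were compared by the authors in DiffBind with DESeq2 and edgeR. How the read numbers were normalised, how the Tn5 offset was handled and if replicates were pooled for peak calling is not given in the sources used here. These steps decide which intervals are listed, and so which neighbours can form a chain.

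The deposited table gives, for each interval, log2 means of normalised reads over all samples and for each condition, which are the authors' values. Its other 3 measures are the authors' own fold, p-value and FDR, which were not used. No column holds a single sample, so depth per sample is unknown and no test was run. An interval was called higher when its MCD mean was above its control mean, and differences were taken between the log2 means. Reads per condition are 2 raised to the deposited log2 mean.

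Chains were made with a largest gap of 25 kb and at least 3 intervals. Each interval was assigned to the nearest start site of a protein-coding transcript of a protein-coding gene in GENCODE M21, with promoters set at 3 kb. Reference sequence was read with pysam 0.24.0 and searched on both strands for 6 motifs. Other software was Python 3.11.15, numpy 2.4.6, pandas 2.3.3 and matplotlib 3.10.9. Chaining and motif search were tested on simulated data.

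Chains, gene lists and motifs were chosen with earlier results of these data known. Chains to be named were the 8 with most intervals and the 5 higher and the 5 lower with the largest median difference. Added to these were the 8 mixed with most intervals, the 3 longest, the 3 shortest and those of 6 gene lists. Of the 3 shortest only the Dusp4 chain was named in the text. The Spi1 and Cebpb chains were named from the macrophage markers. Zfp36l2, the genes with 2 chains, the opposite neighbouring chains and those with a covered start site were named after their values were seen. Alternatives were other gaps, chain sizes, filters, promoter distances, gene sets, pseudocount and motif windows.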

Additional observations from a re-analysis of the deposited data

How the results depend on the processing

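No paired analysis was possible because the table holds means of each condition and no column of a single sample; for the same reason no replicate could be left out. The number of chains (149) and of intervals in them (580) followed the rule: 76 and 286 with a gap of 10 kb, 238 and 966 with 50 kb, 60 and 313 with at least 4 intervals, and 84 and 321 when differences of at least 1 were required. The share of higher chain intervals (82.2%) was 86.6% with at least 4 intervals, 78.1% when the mean over all samples had to be at least 5 on the log2 scale (68.8% of the intervals listed under that filter) and 90.7% with differences of at least 1 (82.1%). It stayed above the share of the list in each. Single-direction chains (87.2%) were 93.4% at 10 kb, 78.6% at 50 kb and 95.2% with differences of at least 1. The share of chain intervals in mixed chains (11.9%) was 5.24% at 10 kb, 20.3% at 50 kb, 8.63% with at least 4 intervals and 3.74% with differences of at least 1. The median difference (1.30) was 1.07 with a pseudocount of 10 and 1.11 with the filter on the mean. Promoter intervals (8.62%) were 3.62% at 1 kb and 17.6% when start sites of all genes were used, which lowered chains with 1 gene from 73.8% to 43.6%. AP-1 matches were in 35.3% of chain intervals and in 46.4% with 100 bp added on each side (39.6% and 49.5% of the list). The causes were not tested. The other 26 values, among them those with neighbours under 2 kb merged and, chosen after seeing the data, without chromosomes 2 and 16 or without the Nfkb1 chain, moved by less than their counting interval or 1.5 times. Counting intervals cover neither replicate error nor shared loci.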
